A study of Homo sapiens with 10 samples.

Results

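The genes described here are the integrin subunits, the laminin chains and a set of other matrix and adhesion genes. They were chosen by symbol in the authors' annotated table, namely every ITGA and ITGB subunit, every LAMA, LAMB and LAMC chain, and FN1, VTN, NID1, NID2, HSPG2, SPARC, FBN1, FBN2, PTK2, ILK and PXN. The rule found 47 genes among 32152, made up of 25 integrin subunits, 11 laminin chains, 8 other matrix genes and 3 adhesion adaptors or kinases. A filter on low counts left 40 of them among 19163 tested genes. Transcripts were measured by polyA RNA-seq in the human embryonic stem cell line WAe009-A, also called H9, as 5 libraries of KCNH2-/- cells grown in mTeSR Plus and 5 libraries of WT cells grown in TeSR-E8. KCNH2 encodes the pore-forming subunit of the hERG potassium channel, and the series asks which transcripts depend on it in undifferentiated cells. Both groups grew on plates coated with Matrigel, a mouse basement membrane extract rich in laminin, for at least 4 days to about 80% confluency, per the labels. The effects of medium and genotype cannot be told apart. The labels call the edited cells a knockout in the titles and a knockdown in the genotype field, name no clone, and do not say whether the libraries of a group came from separate cultures. The p-values below therefore rest on the spread among these libraries, which may be technical.

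Integrins are cell-surface receptors made of 1 alpha and 1 beta subunit that bind matrix proteins outside the cell and, through talin, kindlin, paxillin and kinases such as FAK, the actin cytoskeleton inside it. Laminins are cross-shaped trimers of an alpha, a beta and a gamma chain that polymerise into the basement membrane, where nidogens and perlecan link them to type IV collagen. Human pluripotent stem cells attach to laminin mainly through the integrin of the ITGA6 and ITGB1 subunits, to vitronectin through integrins holding ITGAV, and to fibronectin through the integrin of ITGA5 and ITGB1. They also make a laminin of their own from the LAMA5, LAMB1 and LAMC1 chains.

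Knockout libraries held 29788732 to 40587206 counts and WT libraries 28615751 to 47319933. CPM below are counts per 1000000, scaled to TMM-adjusted library sizes, and each fold change is on the log2 scale with its p from edgeR (quasi-likelihood), adjusted by Benjamini and Hochberg's method over all 19163 tested genes. KCNH2 itself measured 11.2, 13.2, 13.2, 12.2 and 11.2 CPM in knockout replicates 1 to 5 and 14.9, 16.1, 14.7, 16.4 and 15.4 CPM in WT replicates 1 to 5. Its groups did not overlap, and it fell by 0.35 (adjusted p = 6.48e-04). A count over the whole gene does not show which part was edited. Knockout replicate 3 and, less far, WT replicates 3 and 2 stood apart from their groups on the second principal component (28.3% of the variance). Of 8 pluripotent cell markers, 0 fell and 4 rose, namely POU5F1 (log2 fold change 0.30), SALL4 (0.14), NANOG (0.28) and LIN28A (0.22). Over all tested genes 24.1% fell and 21.9% rose, the shares to set beside this and the marker counts that follow. The summed level of the 8 was 6954 to 7351 CPM in the knockout, against 6190.5 to 6455 CPM in WT, led by POU5F1 with 3214 ± 229 CPM in the knockout, against 2617 ± 64.0 CPM in WT (SD, n = 5 libraries each). Markers of other cells that could add matrix transcripts were also summed. Of 6 tested fibroblast markers 3 fell, among them COL1A1 with 71.6 ± 5.19 CPM in the knockout, against 103 ± 1.62 CPM in WT (log2 fold change -0.52, adjusted p = 3.62e-06) and COL1A2 with 81.7 ± 11.9 CPM in the knockout, against 136 ± 3.49 CPM in WT (log2 fold change -0.74, adjusted p = 2.28e-05). PDGFRB (log2 fold change -0.02) and THY1 (0.00) were not called. The fibroblast list, 7 genes measured, summed to 832 to 956 CPM in the knockout, against 952 to 1028 CPM in WT, mostly THY1, which pluripotent stem cells are also known to express, while COL3A1 averaged 0.0224 CPM in the knockout and was at 0 in every WT library. The 5 measured trophoblast and amnion markers summed to 10.7 to 14.6 CPM in the knockout, against 28.6 to 36.0 CPM in WT, mostly GABRP (log2 fold change -1.78) and KRT7 (-0.63), both of which fell, and ISL1 and TFAP2A stayed under 0.1 CPM on average in both groups. The 6 measured primitive and parietal endoderm markers, of a cell type that secretes much laminin, summed to 1.65 to 2.12 CPM in the knockout, against 3.37 to 6.75 CPM in WT. FOXA2 was the 1 of 3 tested that fell, and GATA4 and GATA6 were under 0.1 CPM on average in both groups. The part of these markers in the results below was not tested. Of 6 tested endothelial markers 2, TEK (log2 fold change 0.57) and KDR (0.11), rose and 3 fell, and the median log2 fold change of the 6 was -0.65. Their list summed to 83.3 to 86.9 CPM in the knockout, against 77.8 to 82.3 CPM in WT. Of 2 tested neural markers 1, TUBB3 (log2 fold change -0.26), fell and NES (0.00) was not called, with sums of 450.4 to 502 CPM in the knockout, against 476 to 497 CPM in WT. Of 2 tested blood markers 1 fell, with sums of 0.883 to 1.20 CPM in the knockout, against 0.979 to 1.47 CPM in WT.

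Most of the well-expressed adhesion and matrix genes had less mRNA in KCNH2-/- cells, and most of the decreases were under 0.5 on the log2 scale. In RNA of whole cultures, fewer cells that express a gene and less RNA per cell cannot be told apart. Over all tested genes, 46.0% were called at an adjusted p under 0.05, 24.1% as lower and 21.9% as higher. Of the 21 genes of the set that averaged at least 20 CPM over the 10 libraries, 16 fell, 1 rose and 4 were not called, against 25.5% lower and 34.0% higher among the 8270 tested genes of that level. Their median log2 fold change was -0.26, against 0.03 for all genes of at least 20 CPM. The libraries of the groups did not overlap for 15 of the 21, all with the knockout below, a pattern that 17.7% of all tested genes showed. That share includes genes of low counts and was not taken for genes of at least 20 CPM alone. Among the 16, ITGB1 fell by 6.9% and LAMC3 fell by 45.5%, the ends of the range. PXN was the gene that rose. Among all 40 tested genes of the set, 28 fell and 2 rose, with a median of -0.31, though genes near the filter could pass it through the WT libraries alone. Of the 40, 10 fell by more than 0.5 on the log2 scale, which 7.82% of all tested genes did, and 1, LAMB3, fell by more than 1, which 1.94% did. The groups of 25 of the 40 lay apart with the knockout below, against 17.7% of all tested genes. Those of 1, ITGB4, lay apart with the knockout above, against 16.3%. Without the 3 libraries that stood apart, 25 of the genes were called lower and 2 higher, at a median of -0.33.

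Transcript length moved with these values, and longer transcripts were more often lower in the knockout over all genes. The median transcript of the 40 tested genes was 5646 bases, against 2701 bases over all tested genes, and 39 of the 40 were longer than that median. Among tested genes of at least 20 CPM and at least 4000 bases, 41.8% were called lower and 15.6% higher, with a median log2 fold change of -0.07 over 3237 genes. The 17 genes of the set past both limits had a median of -0.29, and 14 of them fell. When a smooth trend of each library on transcript length and GC was entered as an offset, 25 of the 40 were called lower and 3 higher, with a median of -0.21, against 24.8% lower and 19.4% higher over all tested genes. The same correction on the length of all exons of a gene joined also left 25 lower and 3 higher, at a median of -0.23, against 25.1% and 20.3% over all tested genes. Calls that the correction ended or turned are named with their gene below.

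**Figure D1:**
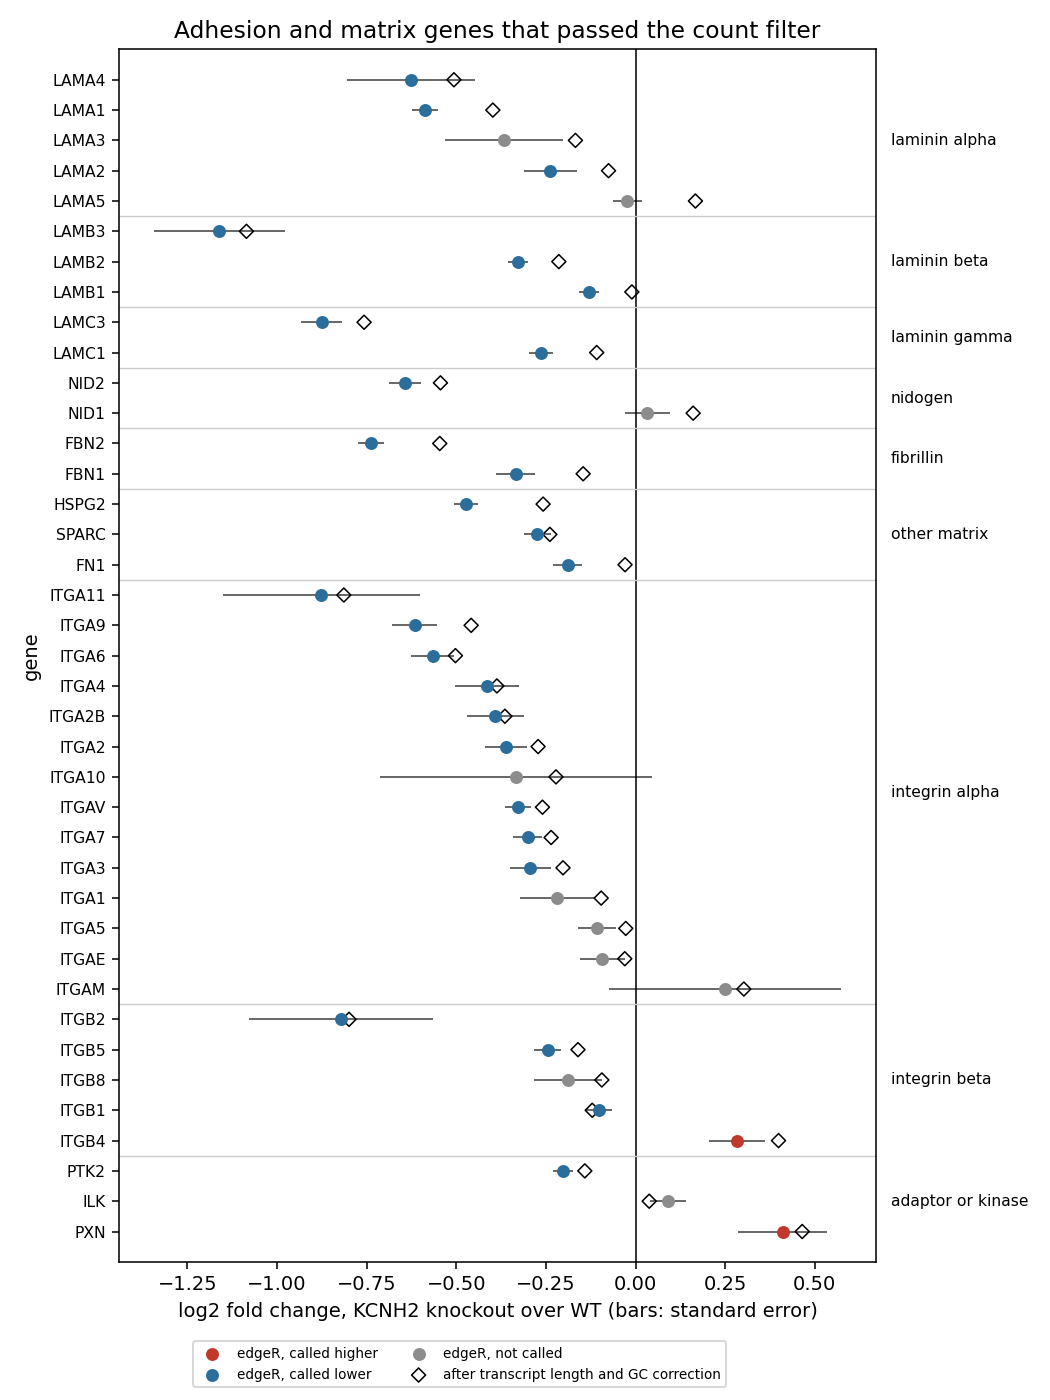
Log2 fold change of KCNH2 knockout over WT (x axis) for 39 of the 40 adhesion and matrix genes that passed the count filter, grouped by role down the page. Filled circles with standard error bars are the edgeR estimates, coloured by call, and open diamonds are the estimates after correction for transcript length and GC. Most circles lie left of 0, LAMA5, NID1 and ILK lie near 0, and PXN and ITGB4 lie to the right.

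The sequences just upstream of 5 genes are shown to set side by side genes that fell (FBN2, ITGA6 and, by the least, ITGB1), a gene that was not called (LAMA5) and the gene that rose most (PXN). Each is the 250 bases before the transcription start in RefSeq on GRCh38.p14, read 5′ to 3′ on the strand of the gene, and for a gene with more than 1 start the first window listed, which can lie inside the longer gene span of GENCODE 29 given below. Capitals mark the GC box letters GGGCGG, the TEAD core letters GGAATG and the TATA box letters TATAAA, each on either strand.
FBN2 (chr5:128538246-128538495, minus strand): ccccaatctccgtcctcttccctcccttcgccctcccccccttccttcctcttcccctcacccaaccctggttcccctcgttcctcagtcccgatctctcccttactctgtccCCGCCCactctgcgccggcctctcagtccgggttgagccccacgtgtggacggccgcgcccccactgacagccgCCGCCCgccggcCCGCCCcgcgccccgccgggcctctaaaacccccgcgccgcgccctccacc
ITGA6 (chr2:172427086-172427335, plus strand): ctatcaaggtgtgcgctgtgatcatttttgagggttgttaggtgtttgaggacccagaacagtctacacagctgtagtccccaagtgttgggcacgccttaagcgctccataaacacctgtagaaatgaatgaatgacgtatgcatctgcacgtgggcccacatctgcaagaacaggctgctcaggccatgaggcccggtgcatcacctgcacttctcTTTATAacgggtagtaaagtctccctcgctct
ITGB1 (chr10:32958231-32958480, minus strand): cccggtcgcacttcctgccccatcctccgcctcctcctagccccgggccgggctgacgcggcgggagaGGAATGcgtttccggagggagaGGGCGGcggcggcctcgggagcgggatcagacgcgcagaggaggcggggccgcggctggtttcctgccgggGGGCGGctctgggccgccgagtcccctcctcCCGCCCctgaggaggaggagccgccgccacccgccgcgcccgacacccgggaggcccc
LAMA5 (chr20:62367313-62367562, minus strand): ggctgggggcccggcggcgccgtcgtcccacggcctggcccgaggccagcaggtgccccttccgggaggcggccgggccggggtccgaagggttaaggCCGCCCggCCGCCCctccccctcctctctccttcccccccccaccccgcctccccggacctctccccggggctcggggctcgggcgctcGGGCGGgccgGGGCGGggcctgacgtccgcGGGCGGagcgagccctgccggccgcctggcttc
PXN (chr12:120265731-120265980, minus strand): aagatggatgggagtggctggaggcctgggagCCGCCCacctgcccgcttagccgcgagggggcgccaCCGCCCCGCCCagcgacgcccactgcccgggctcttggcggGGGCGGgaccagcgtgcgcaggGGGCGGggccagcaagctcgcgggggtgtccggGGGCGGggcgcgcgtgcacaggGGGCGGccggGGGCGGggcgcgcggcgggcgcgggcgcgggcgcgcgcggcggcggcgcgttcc
GC bases made up 72.8% of the FBN2 window, 50.8% of that of ITGA6, 78.4% for ITGB1, 82.8% for LAMA5 and 83.6% for PXN. The windows held 3, 0, 3, 5 and 8 GC boxes in the same order, some overlapping, and so GC boxes stood upstream of 2 of the genes that fell, of the gene that was not called and of the gene that rose. Windows were found for 34 of the 47 genes. A GC box stood in 19 of the 34, against 42.3% of the 27305 windows of all genes, and in 11 of the 20 windows of genes that fell, and TATAAA letters in 1, ITGA6, against 11.1%. The TEAD letters stood in 7 of the 34, against 11.9%. The AP-1 letters TGANTCA stood in 1 of the 34, LAMA3, against 6.60%. These matches describe the letters in the windows and are not evidence of binding.

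Every laminin chain had a log2 fold change below 0, but their sizes differed widely. Of the 11 chains, 9 fell, 0 rose and 2, LAMA5 and LAMA3, were not called, where 24.1% of all tested genes were lower and 21.9% higher. After the length and GC correction by either length, 7 chains were called lower and 1, LAMA5, higher. Of all tested genes, 25.1% were then lower and 20.3% higher by joined exon length, and 24.8% and 19.4% by transcript length. Among the alpha chains, LAMA1, the chain of the laminin in Matrigel and of the earliest embryonic basement membranes (chromosome 18, 6941744 to 7117814, minus strand, GRCh38), measured 135, 133, 126, 130.0 and 119 CPM in knockout replicates 1 to 5, against 186, 189, 198, 197 and 195 CPM in WT replicates 1 to 5. All 5 knockout libraries lay below all 5 WT libraries, with log2 fold change -0.59 (SE 0.04, adjusted p = 3.00e-07). LAMA5, the alpha chain of the laminin that supports primed pluripotent cells (chromosome 20, 62307955 to 62367312, minus strand), measured 236, 266, 249, 249 and 259 CPM in knockout replicates 1 to 5, against 272, 263, 248, 240.0 and 256 CPM in WT replicates 1 to 5. The LAMA5 groups overlapped, and the difference was within the spread of the libraries, with log2 fold change -0.02 (SE 0.04, adjusted p = 0.665). That value rests on the scale used: after correction for transcript length and GC, LAMA5 was higher in the knockout, at 0.17 (adjusted p = 0.00247) by transcript length and 0.11 (adjusted p = 0.0126) with the joined exon length, and without knockout replicate 1 it stood at 0.01 (adjusted p = 0.846). LAMA1 stayed lower after the same corrections, at -0.40 and -0.42.

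The beta and gamma chains LAMB1, LAMB2 and LAMC1, which join alpha chains in trimers, were lower with fold changes nearer to 0 than that of LAMA1. LAMB1, the beta chain of the laminins with LAMA1 or LAMA5 in early embryos (chromosome 7, 107923799 to 108003255, minus strand), measured 118, 125, 123, 128 and 122 CPM in knockout replicates 1 to 5, against 135, 130.3, 139, 133 and 136 CPM in WT replicates 1 to 5. The groups did not overlap, and the log2 fold change -0.13 (SE 0.03, adjusted p = 0.00246) was one of the smallest called. It was not called after the length and GC corrections (adjusted p = 0.774 for transcript length, 0.221 with the joined exon length). LAMB2, the beta chain of synaptic and kidney laminins (chromosome 3, 49121114 to 49133118, minus strand), measured 107, 107, 101, 99.3 and 98.9 CPM in knockout replicates 1 to 5, against 129.8, 127, 128, 132 and 127 CPM in WT replicates 1 to 5. It fell by 0.33 (SE 0.03, adjusted p = 4.72e-06), again without overlap. After the length and GC corrections LAMB2 was still called lower, at -0.21 by transcript length (adjusted p = 1.70e-04) and -0.27 by joined exon length (adjusted p = 3.28e-05). LAMC1, the gamma chain of most laminins (chromosome 1, 183023460 to 183145592, plus strand), measured 194, 191, 209, 208 and 188 CPM in knockout replicates 1 to 5, against 228, 235, 242, 241 and 243 CPM in WT replicates 1 to 5. The knockout lay below WT in every library, with log2 fold change -0.26 (SE 0.03, adjusted p = 8.50e-05). After the length and GC corrections LAMC1 was still called lower, at -0.11 by transcript length (adjusted p = 0.00931) and -0.17 by joined exon length (adjusted p = 7.37e-04). LAMC3, a gamma chain known from retina, brain and other tissues (chromosome 9, 131009082 to 131094473, plus strand), showed the largest decrease among genes of at least 20 CPM. It measured 29.6, 29.4, 25.7, 23.9 and 26.3 CPM in knockout replicates 1 to 5, against 47.1, 48.7, 51.5, 51.04 and 49.0 CPM in WT replicates 1 to 5, with log2 fold change -0.88 (SE 0.06, adjusted p = 5.13e-07). The smallest WT value was above the largest knockout value by more than the whole range of either group.

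LAMB3 and LAMA3, chains of the epithelial laminin of hemidesmosomes, were at low levels. LAMB3, the beta chain, measured 1.31, 0.668, 1.14, 0.713 and 0.769 CPM in knockout replicates 1 to 5, against 2.15, 2.19, 1.82, 1.998 and 2.08 CPM in WT replicates 1 to 5, and its fall of 1.16 (SE 0.18, adjusted p = 3.12e-04) was the largest on the log2 scale of the whole set. LAMA3, the alpha chain, averaged 1.04 ± 0.197 CPM in the knockout, against 1.34 ± 0.230 CPM in WT (SD, n = 5 each) and was not called (log2 fold change -0.37, SE 0.16, adjusted p = 0.0896). It was called lower, at -0.47 (adjusted p = 0.0295), when knockout replicate 1 was left out. LAMA2, the muscle chain, averaged 3.18 ± 0.0782 CPM in the knockout, against 3.75 ± 0.244 CPM in WT and was called lower (adjusted p = 0.0203), but not without WT replicate 2 (adjusted p = 0.055) nor after the length and GC corrections (0.485 and 0.173). The LAMA2 call was also lost in the DESeq2 Wald test (0.11), without the count filter (0.0599) and without the 3 libraries that stood apart (0.103). LAMA4, the chain of vascular laminins, averaged 0.872 ± 0.0758 CPM in the knockout, against 1.35 ± 0.321 CPM in WT and fell by 0.63 (adjusted p = 0.0127), though its groups overlapped.

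**Figure D2:**
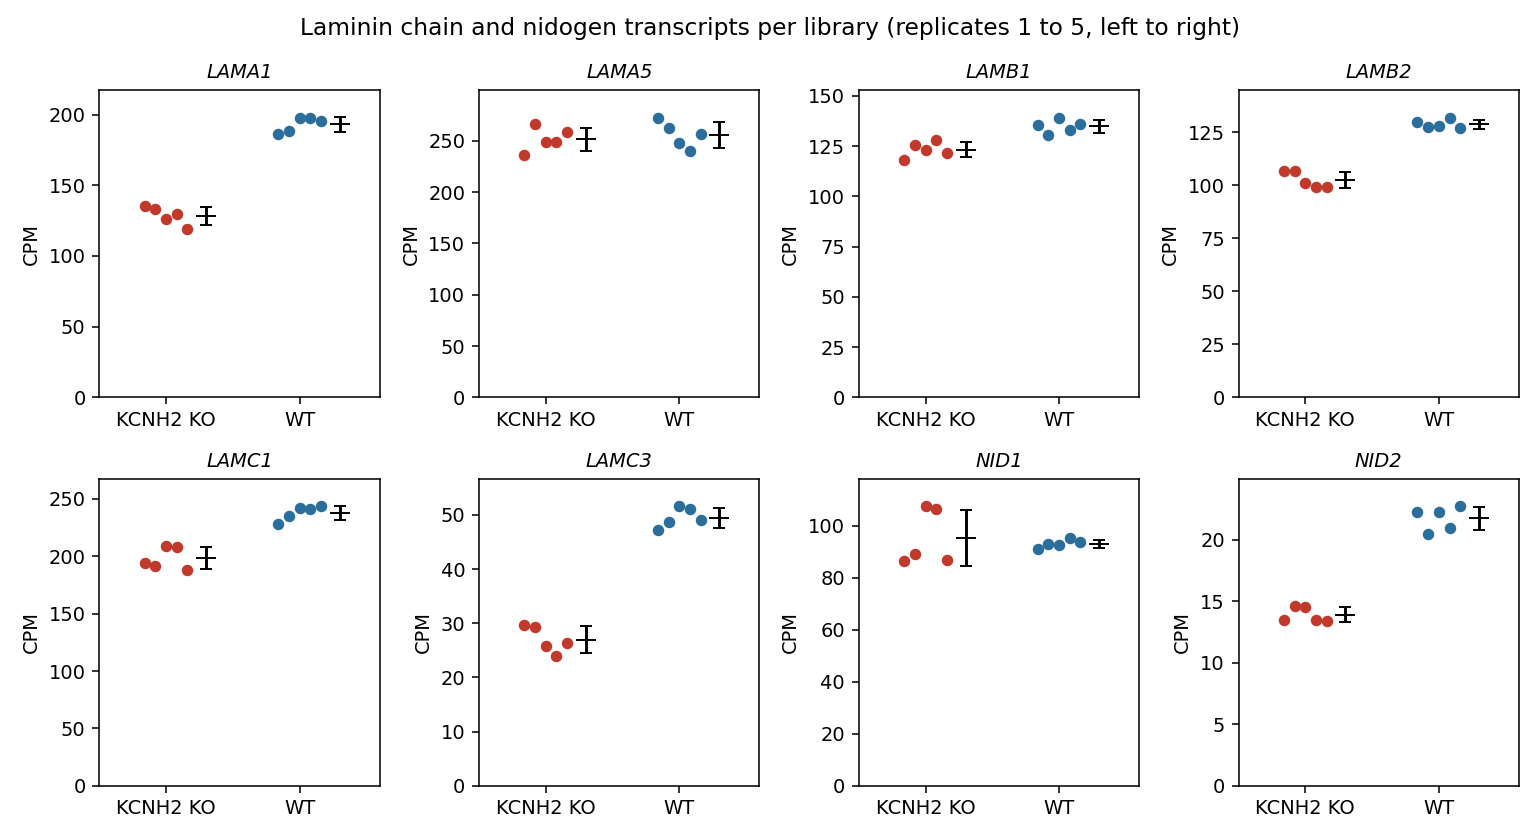
CPM (y axis, from 0) of 6 laminin chains and both nidogens in each of the 10 libraries, knockout in red on the left and WT in blue on the right. Points are replicates 1 to 5 from left to right, and the black dash and bar beside each group are its mean and SD. The groups are apart for LAMA1, LAMB1, LAMB2, LAMC1, LAMC3 and NID2 and overlap for LAMA5 and NID1.

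The chains moved by unequal amounts, and the make-up of each family differed between the groups. The share of a chain is its CPM per kb of exon divided by the sum over the genes of its family in the set. It is taken within each library, so it does not depend on how libraries are scaled. These shares are given as descriptions without a test. LAMA5 made up 67.3% ± 1.71 in the knockout and 58.4% ± 1.85 in WT of alpha chain transcripts (SD, n = 5 each), and the libraries ranged from 64.8 to 69.5% in knockout libraries and 56.3 to 60.9% in WT libraries, with no overlap. LAMA1 held most of the rest, with 31.0% ± 1.67 in the knockout and 39.7% ± 1.76 in WT. Among beta chains, LAMB1 made up 50.01% ± 1.47 in the knockout and 46.3% ± 0.786 in WT and LAMB2 49.3% ± 1.34 in the knockout and 52.5% ± 0.734 in WT. Which of these 2 chains leads depends on the length used: by transcript length LAMB1 made up 54.1% in the knockout and 50.4% in WT and LAMB2 45.4% in the knockout and 48.6% in WT, and the difference between the groups was alike. Among gamma chains, LAMC1 made up 81.3% ± 1.42 in the knockout and 76.2% ± 0.228 in WT and LAMC3 12.3% ± 1.35 in the knockout and 17.5% ± 0.348 in WT. LAMA5, LAMB1 and LAMC1 each held a larger share of their family in the knockout libraries, although LAMB1 and LAMC1 were themselves lower. LAMB1 also joins LAMA1, whose share was smaller, and LAMC1 is in most laminins, so these shares do not show which trimers were made. A larger share shows unequal change and not a rise.

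**Figure D3:**
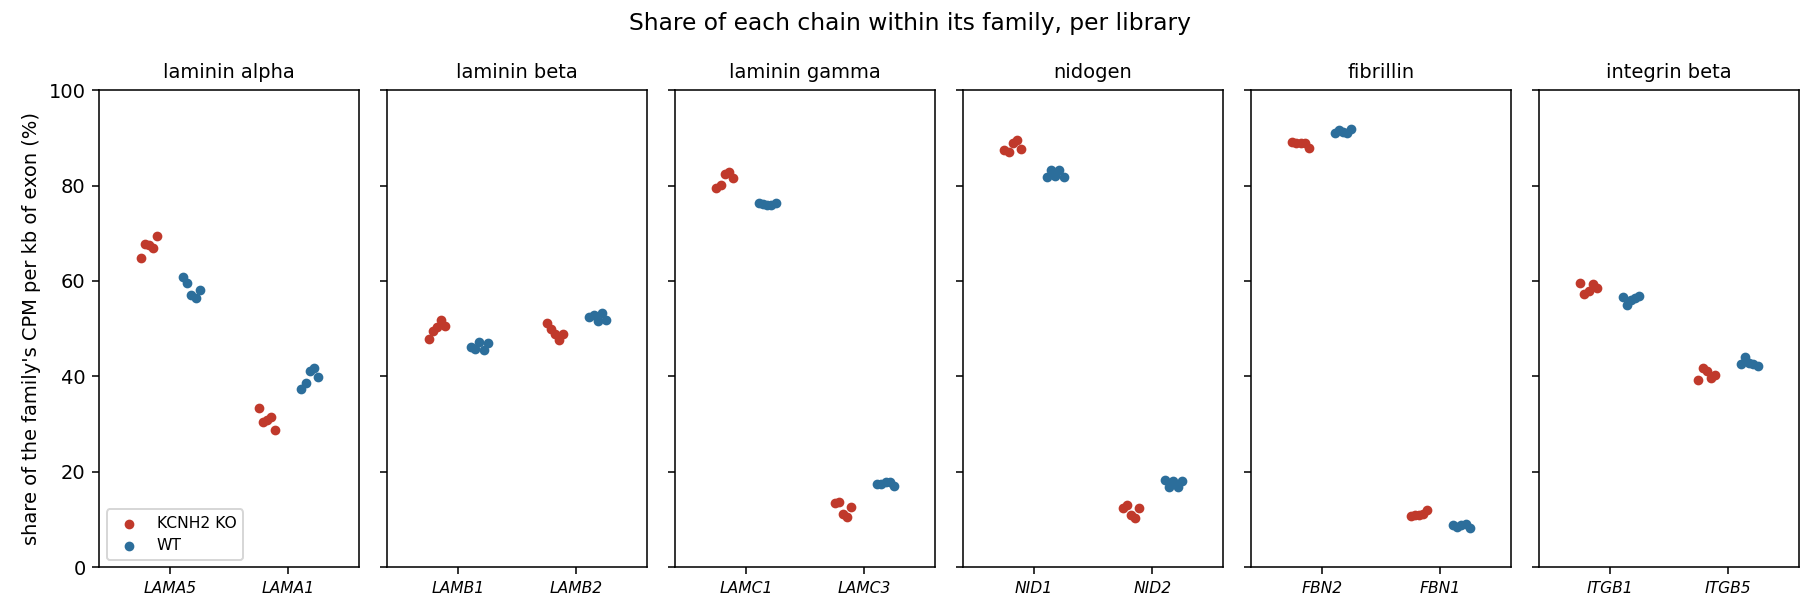
Share of each chain in the summed CPM per kb of exon of its family (y axis, percent) for laminin alpha, beta and gamma chains, nidogens, fibrillins and integrin beta subunits, with 1 point per library. The fibrillin sum holds FBN1 and FBN2 only, without FBN3. Knockout libraries are red and left of the blue WT libraries. LAMA5, LAMB1, LAMC1, NID1, FBN1 and ITGB1 hold larger shares in the knockout. LAMA1, LAMB2, LAMC3, NID2, FBN2 and ITGB5 hold smaller ones, and any further chains of these families are not drawn.

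Transcripts of the proteins that tie laminin networks to the rest of the basement membrane gave mixed results. NID1, a nidogen that bridges laminin and type IV collagen (chromosome 1, 235975830 to 236065162, minus strand), measured 86.5, 89.2, 107, 107 and 87.0 CPM in knockout replicates 1 to 5, against 91.2, 93.2, 92.6, 95.3 and 93.8 CPM in WT replicates 1 to 5. Knockout replicates 3 and 4 were above every WT library and replicates 1, 2 and 5 below every one, and the gene was not called (log2 fold change 0.03, SE 0.06, adjusted p = 0.696). Without knockout replicate 3 its value was -0.01. NID2, the second nidogen (chromosome 14, 52004803 to 52069228, minus strand), measured 13.5, 14.6, 14.5, 13.5 and 13.4 CPM in knockout replicates 1 to 5, against 22.2, 20.5, 22.3, 21.0 and 22.7 CPM in WT replicates 1 to 5. It fell by 0.64 (SE 0.04, adjusted p = 8.25e-07) without overlap, and NID1 made up 88.1% ± 1.12 in the knockout and 82.4% ± 0.767 in WT of nidogen transcripts. Exons of RTRAF on the other strand cover 30.0% of the NID2 exons and held 67225 counts over the 10 libraries against 6715 for NID2, and no source used here gives the strand setting of the counting. RTRAF rose by 0.23 on the log2 scale (adjusted p = 1.70e-05), the opposite direction to NID2. HSPG2, which encodes the large heparan sulfate proteoglycan perlecan (chromosome 1, 21822245 to 21937297, minus strand), measured 246, 252, 277, 262 and 255 CPM in knockout replicates 1 to 5, against 347, 355, 363, 364 and 365 CPM in WT replicates 1 to 5. It fell by 0.47 (SE 0.03, adjusted p = 7.96e-07), and by 0.26 (adjusted p = 4.29e-05) after correction for transcript length and GC. Exons of LDLRAD2 on the other strand cover 11.7% of its exons but held only 818 counts, against 116075 for HSPG2.

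The fibrillins of the set, FBN1 and FBN2, were both lower. Fibrillins form microfibrils that hold latent TGF-beta. FBN2, the fibrillin of embryonic tissue (chromosome 5, 128257909 to 128659185, minus strand), measured 57.5, 56.2, 55.4, 57.7 and 53.1 CPM in knockout replicates 1 to 5, against 88.9, 88.9, 96.8, 95.4 and 96.8 CPM in WT replicates 1 to 5. The groups were far apart, with log2 fold change -0.74 (SE 0.04, adjusted p = 4.22e-08). FBN1, the main adult fibrillin, averaged 8.59 ± 0.233 CPM in the knockout, against 10.8 ± 0.675 CPM in WT (SD, n = 5 each) and fell by 0.33 (adjusted p = 3.94e-04). After the length and GC corrections FBN1 was still called lower, at -0.15 by transcript length (adjusted p = 0.0422) and -0.19 by joined exon length (adjusted p = 0.0136). FBN2 made up 88.8% ± 0.523 in the knockout and 91.3% ± 0.361 in WT of FBN1 and FBN2 transcripts together. FBN3, a fibrillin outside the set, was not part of that sum. It had 8.30 CPM per kb of exon in the knockout and 9.90 in WT, above FBN2 at 4.24 in the knockout and 7.07 in WT. FBN3 was also called lower (log2 fold change -0.26, adjusted p = 1.25e-05). SPARC, a matricellular protein that binds collagen (chromosome 5, 151661096 to 151687165, minus strand), measured 315, 334, 360.2, 361 and 331 CPM in knockout replicates 1 to 5, against 419.6, 399, 413, 413 and 414 CPM in WT replicates 1 to 5. It fell by 0.27 (SE 0.04, adjusted p = 1.17e-04), and the value changed little after the length and GC correction (-0.24). FN1, which encodes fibronectin (chromosome 2, 215360440 to 215436172, minus strand), measured 109.5, 104, 119, 113 and 102 CPM in knockout replicates 1 to 5, against 122, 122, 126, 131 and 125 CPM in WT replicates 1 to 5. Its groups did not overlap and it was called lower (log2 fold change -0.19, SE 0.04, adjusted p = 0.0028), but it was not called after correction for transcript length and GC (-0.03, adjusted p = 0.565) or with the joined exon length (-0.02, adjusted p = 0.653). VTN, which encodes vitronectin, a plasma protein used as a culture coat, had 28 counts in the 5 knockout libraries and 41 in the 5 WT libraries and did not pass the filter.

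Among the integrin alpha subunits, 9 of 14 tested fell and 0 rose, where 24.1% of all tested genes were lower and 21.9% higher. ITGA6, the alpha subunit of the main laminin receptor of these cells (chromosome 2, 172427354 to 172506282, plus strand), had the largest decrease among alpha subunits of at least 20 CPM. It measured 151, 142, 120.0, 126 and 121 CPM in knockout replicates 1 to 5, against 188, 197, 202, 195 and 195 CPM in WT replicates 1 to 5. Knockout replicates 3 and 5 were lowest and replicate 1 highest, all below WT, with log2 fold change -0.57 (SE 0.06, adjusted p = 1.84e-05). ITGA7, another laminin receptor subunit, best known from muscle (chromosome 12, 55684568 to 55716043, minus strand), measured 114, 123, 123, 124 and 121 CPM in knockout replicates 1 to 5, against 161, 152, 138, 147 and 147 CPM in WT replicates 1 to 5. It fell by 0.30 (SE 0.04, adjusted p = 9.35e-05). ITGA3, the third subunit of this laminin-binding group (chromosome 17, 50055968 to 50090481, plus strand), measured 30.7, 32.9, 37.96, 35.1 and 32.2 CPM in knockout replicates 1 to 5, against 42.8, 39.9, 41.5, 38.8 and 44.1 CPM in WT replicates 1 to 5. It fell by 0.29 (SE 0.06, adjusted p = 0.00129), so all 3 laminin-binding alpha subunits named here were lower without overlap between the groups. The corrected values of ITGA3 by transcript and joined exon length were -0.20 and -0.19, both called.

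The subunits that bind arginine-glycine-aspartate (RGD) motifs, found in fibronectin and vitronectin, gave mixed results. ITGAV, the vitronectin receptor subunit (chromosome 2, 186590065 to 186680901, plus strand), measured 54.6, 48.6, 50.6, 50.8 and 47.7 CPM in knockout replicates 1 to 5, against 62.8, 63.2, 63.4, 64.9 and 62.6 CPM in WT replicates 1 to 5. It fell by 0.33 (SE 0.04, adjusted p = 2.23e-05) without overlap. ITGA5, the fibronectin receptor subunit (chromosome 12, 54395261 to 54419460, minus strand), measured 43.9, 46.5, 53.0, 49.0 and 43.2 CPM in knockout replicates 1 to 5, against 52.1, 51.05, 50.9, 47.7 and 52.2 CPM in WT replicates 1 to 5. Its groups overlapped and it was not called (log2 fold change -0.11, SE 0.05, adjusted p = 0.121), although it was called lower, at -0.15 (adjusted p = 0.0146), when knockout replicate 3, its highest knockout library, was left out. ITGA2B, the alpha subunit of the platelet fibrinogen receptor (chromosome 17, 44372180 to 44389505, minus strand), measured 17.0, 17.9, 14.8, 15.1 and 17.0 CPM in knockout replicates 1 to 5, against 25.9, 20.8, 19.95, 20.4 and 20.2 CPM in WT replicates 1 to 5. It fell by 0.39 (SE 0.08, adjusted p = 0.00179), and WT replicate 1 stood well above the other WT libraries. ITGB3, its partner in platelets, had only 25 counts over the 5 knockout libraries and 62 over the 5 WT libraries.

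The remaining alpha subunits were under 20 CPM. ITGA9, a receptor subunit for tenascin and other ligands, fell by 0.62 (adjusted p = 1.25e-05), with means of 6.38 ± 0.291 CPM in the knockout, against 9.78 ± 0.643 CPM in WT (SD, n = 5 each). ITGA4, a subunit that binds fibronectin and VCAM1, averaged 5.23 ± 0.715 CPM in the knockout, against 6.96 ± 0.267 CPM in WT and fell by 0.41 (adjusted p = 0.00256). ITGA2, a collagen receptor subunit, averaged 8.36 ± 0.619 CPM in the knockout, against 10.7 ± 0.292 CPM in WT and fell by 0.36 (adjusted p = 3.96e-04). ITGA11, also a collagen receptor subunit, averaged 0.304 ± 0.121 CPM in the knockout, against 0.564 ± 0.103 CPM in WT and was called lower (adjusted p = 0.0206), but not without WT replicate 4 (0.0504) or without the 3 libraries that stood apart (0.0987). ITGA1 (log2 fold change -0.22), ITGAE (-0.09), ITGA10 (-0.33) and ITGAM (0.25) were not called. Without knockout replicate 1, ITGA1 and ITGAE were called lower (adjusted p = 0.0372 and 0.0469). ITGAL, ITGAX and ITGAD, subunits of leukocyte integrins, did not pass the filter, with 23, 52 and 2 counts over the knockout libraries and 57, 44 and 2 over the WT libraries.

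The 2 beta subunits with the highest levels, ITGB1 and ITGB5, had log2 fold changes nearer to 0 than ITGA6. ITGB1, which pairs with most alpha subunits named above (chromosome 10, 32900319 to 33005792, minus strand), had the highest level per length of the integrins. It measured 445, 427, 478, 482 and 431 CPM in knockout replicates 1 to 5, against 485, 469, 484, 494 and 499 CPM in WT replicates 1 to 5. Knockout replicates 3 and 4 lay within the WT range, and the decrease of 6.9% was barely past the threshold (log2 fold change -0.10, SE 0.04, adjusted p = 0.0437). The call was lost when knockout replicate 1, 2 or 5 or WT replicate 1, 3, 4 or 5 was left out (adjusted p = 0.0685 to 0.143), with DESeq2 size factors (0.0749), without the count filter (0.0687) and in the DESeq2 Wald test (0.07). ITGB5, which pairs with ITGAV (chromosome 3, 124761948 to 124901418, minus strand), measured 314, 334, 366, 346 and 318 CPM in knockout replicates 1 to 5, against 391, 402, 397, 400.1 and 398 CPM in WT replicates 1 to 5. It fell by 0.25 (SE 0.04, adjusted p = 3.01e-04) without overlap. By transcript and by joined exon length the corrected values were -0.16 and -0.19, both called. ITGB1 made up 58.5% ± 1.003 in the knockout and 56.2% ± 0.688 in WT of beta subunit transcripts per length and ITGB5 40.4% ± 1.04 in the knockout and 42.9% ± 0.673 in WT. ITGB4, the partner of ITGA6 in hemidesmosomes, was the 1 integrin subunit that rose, and is given in full for that reason, after its values were seen. It measured 6.69, 6.20, 5.66, 6.45 and 5.67 CPM in knockout replicates 1 to 5, against 4.38, 5.10, 5.43, 4.98 and 5.31 CPM in WT replicates 1 to 5, with log2 fold change 0.28 (SE 0.08, adjusted p = 0.0118), and the groups did not overlap. ITGB8, which pairs with ITGAV to activate TGF-beta, averaged 5.73 ± 0.683 CPM in the knockout, against 6.53 ± 0.617 CPM in WT (SD, n = 5 each) and was not called (log2 fold change -0.19, SE 0.10, adjusted p = 0.13), though it was called lower without knockout replicate 3 (adjusted p = 0.0432). ITGB2, the leukocyte beta subunit, was called lower from 41 counts over the knockout libraries and 83 over the WT libraries. That call was lost without knockout replicate 5 (adjusted p = 0.0506) and without WT replicate 2 (0.0559), as well as in the DESeq2 Wald test (0.0864) and without the 3 libraries that stood apart (0.0862). ITGB6 had 0 counts over the knockout libraries and 3 over the WT libraries, ITGB7 had 28 over the knockout and 56 over the WT libraries, and neither passed the filter. Exons of ZNF740 on the other strand cover 42.1% of the ITGB7 exons and held 15949 counts.

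**Figure D4:**
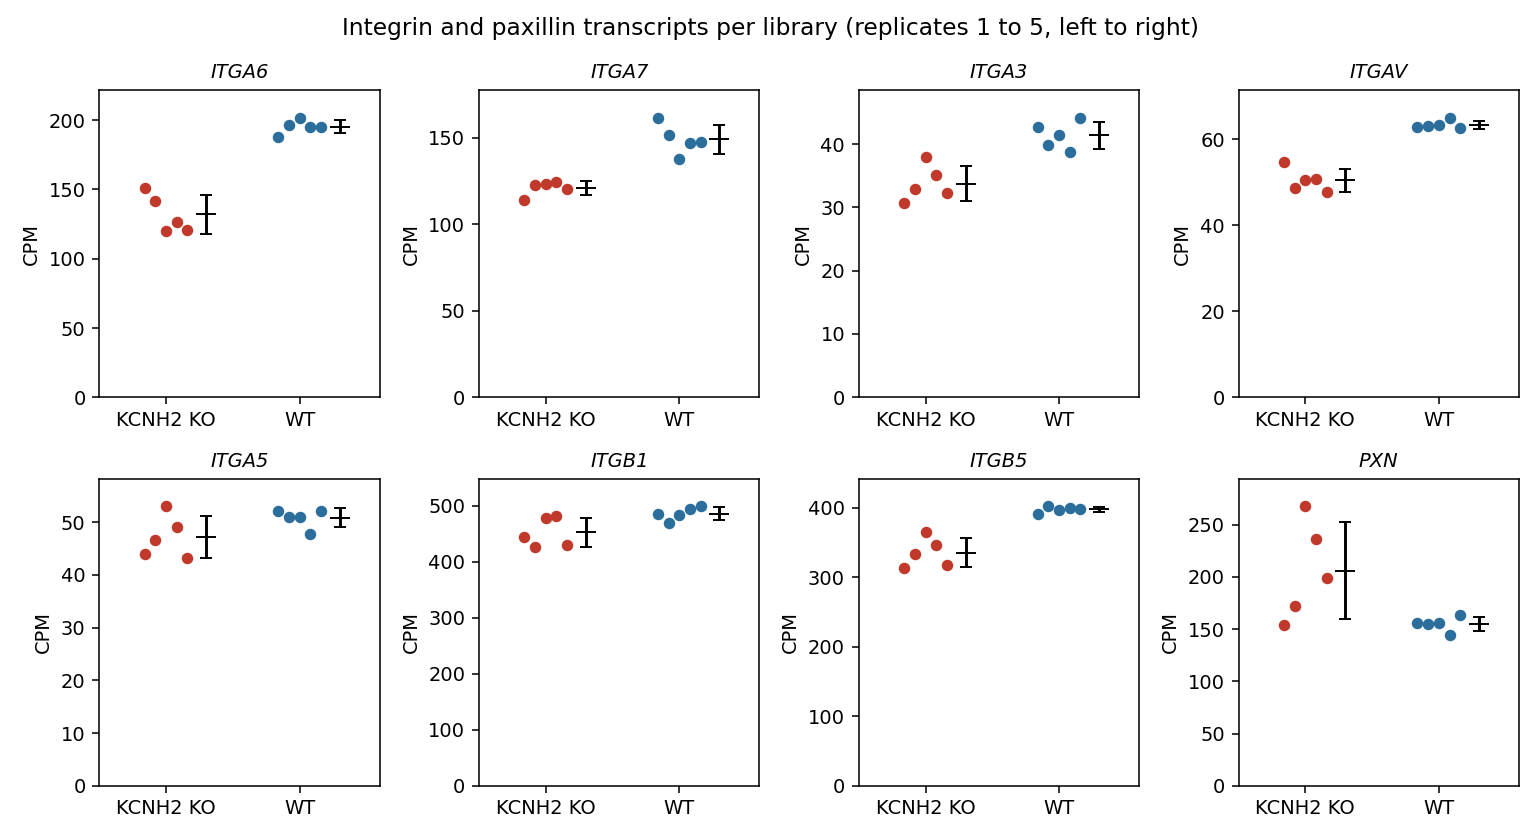
CPM (y axis, from 0) of 7 integrin subunits and PXN in each of the 10 libraries, knockout in red on the left and WT in blue on the right. Points are replicates 1 to 5 from left to right, and the black dash and bar are the mean and SD of 5 libraries. ITGA6, ITGA7, ITGA3, ITGAV and ITGB5 are apart, ITGA5 and ITGB1 overlap, and PXN spreads widely in the knockout, with replicate 3 the highest at 267 CPM.

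Of the genes of the set that act inside the cell at adhesion sites, PXN rose, PTK2 fell and ILK was not called. PXN, which encodes the adaptor paxillin (chromosome 12, 120210439 to 120265771, minus strand), measured 154, 172, 267, 236 and 199 CPM in knockout replicates 1 to 5, against 156, 155, 155, 144 and 164 CPM in WT replicates 1 to 5. Knockout replicate 1 lay within the WT range while replicates 2 to 5 lay above it, and the SD was 46.2 CPM among knockout libraries, against 6.93 CPM among WT libraries. It was called higher (log2 fold change 0.41, SE 0.12, adjusted p = 0.0174), and its value ran from 0.30 to 0.51 when single libraries were left out. The antisense gene PXN-AS1 covers 12.3% of the PXN exons, held 3472 counts over the 10 libraries against 67066 for PXN, and rose by 0.37 (adjusted p = 2.82e-04). PTK2, which encodes focal adhesion kinase (chromosome 8, 140657900 to 141002216, minus strand), measured 178, 178, 189, 187 and 177 CPM in knockout replicates 1 to 5, against 211, 205, 210.2, 205 and 215 CPM in WT replicates 1 to 5. It fell by 0.20 (SE 0.03, adjusted p = 1.04e-04) without overlap. After the length and GC corrections PTK2 was still called lower, at -0.14 by transcript length (adjusted p = 6.38e-04) and -0.08 by joined exon length (adjusted p = 0.0107). ILK, the scaffold and pseudokinase that binds beta subunit tails (chromosome 11, 6603708 to 6610874, plus strand), measured 104, 105, 127, 111 and 109.7 CPM in knockout replicates 1 to 5, against 102, 108, 108, 102 and 103 CPM in WT replicates 1 to 5. Knockout replicates 3, 4 and 5 were above every WT library and replicates 1 and 2 within the WT range, and the gene was not called (log2 fold change 0.09, SE 0.05, adjusted p = 0.158). Exons of TAF10 on the other strand cover 68.1% of the ILK exons, with 35223 counts against 40350 for ILK, and TAF10 rose by 0.35 (adjusted p = 8.49e-05). Without a known strand setting, reads of such overlapping genes cannot be told apart, and their part in the values of PXN, ILK and NID2 was not tested.

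Per kb of exon, the most abundant transcripts of the set were ITGB1, with 75.3 ± 4.36 in the knockout and 80.9 ± 1.91 in WT CPM per kb (SD, n = 5 each), and SPARC, with 70.4 ± 4.12 in the knockout and 85.2 ± 1.62 in WT. ITGB5 followed with 52.05 ± 3.27 in the knockout and 61.7 ± 0.640 in WT. ILK had 32.02 ± 2.67 in the knockout and 30.1 ± 0.851 in WT. PXN had 27.6 ± 6.19 in the knockout and 20.8 ± 0.929 in WT. LAMC1 had 23.6 ± 1.14 in the knockout and 28.3 ± 0.738 in WT. ITGA6 had 20.2 ± 2.11 in the knockout and 29.9 ± 0.743 in WT and ITGA7 19.0 ± 0.628 in the knockout and 23.4 ± 1.33 in WT. The order of neighbours depends on the length used. Per kb of a single transcript in place of all exons joined, ITGB1 had 119.6 in the knockout and 128 in WT, SPARC 92.0 in the knockout and 111 in WT and PXN 54.4 in the knockout and 40.9 in WT, against 25.1 in the knockout and 30.2 in WT for LAMC1. ITGA6 had 23.5 in the knockout and 34.8 in WT on that scale and ITGA7 29.4 in the knockout and 36.2 in WT, so ITGA7 was ahead, the reverse of their order by joined exons. LAMA5, at 17.6 ± 0.793 in the knockout and 17.9 ± 0.888 in WT, was above LAMA1, at 8.10 ± 0.406 in the knockout and 12.2 ± 0.334 in WT, in both groups. The alpha subunits of fibronectin and vitronectin receptors were lower, with ITGAV at 6.15 ± 0.324 in the knockout and 7.72 ± 0.113 in WT and ITGA5 at 6.22 ± 0.526 in the knockout and 6.70 ± 0.238 in WT.

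**Figure D5:**
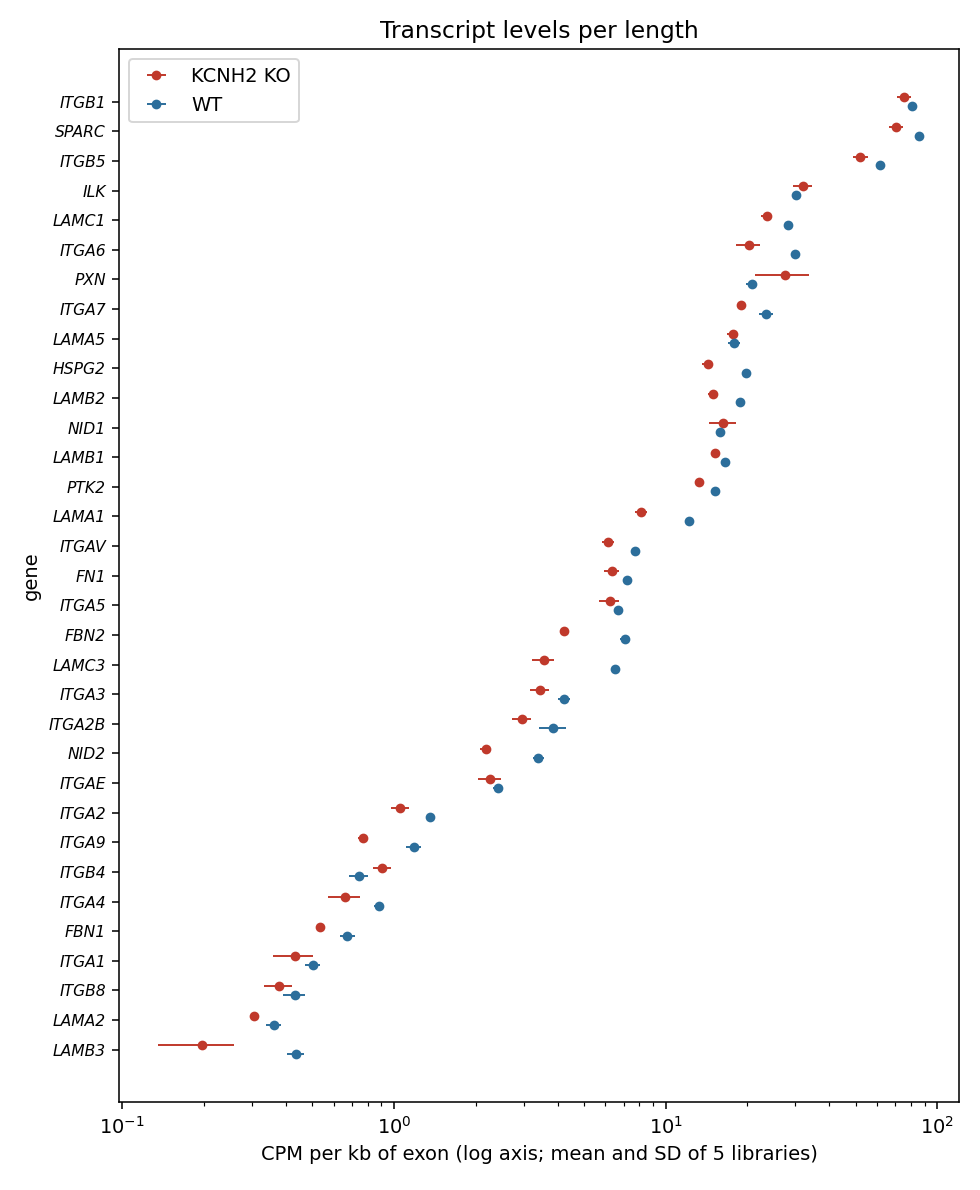
Transcript level per length (x axis, CPM per kb of exon, log axis) of 33 genes of the set that average at least 0.3 CPM per kb, ordered from high to low down the page. Points are means of 5 libraries and bars their SD, knockout in red above WT in blue. ITGB1, SPARC and ITGB5 lead, and most red points lie left of their blue partner.

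Other genes of the same structures were counted from lists that did not include the set above. Of 48 tested genes of basement membrane and elastic matrix, 34 fell and 4 rose, where 24.1% of all tested genes were lower and 21.9% higher. The list had a median log2 fold change of -0.41, against 0.00 over all tested genes. Over the 19 alternatives, the length and GC corrections among them, 30 to 34 of the list were called lower and 3 to 5 higher. After those corrections 25.1% of all tested genes were lower by joined exon length and 24.8% by transcript length. All 6 type IV collagen genes were among those that fell. COL4A6 averaged 69.2 ± 3.57 CPM in the knockout, against 101 ± 1.40 CPM in WT (log2 fold change -0.55, adjusted p = 3.43e-07) and COL4A5 85.2 ± 1.75 CPM in the knockout, against 114 ± 2.01 CPM in WT (log2 fold change -0.42, adjusted p = 1.56e-07). FBLN2, a fibulin that binds nidogen and fibrillin, averaged 50.98 ± 0.927 CPM in the knockout, against 81.3 ± 2.16 CPM in WT (log2 fold change -0.67, adjusted p = 7.09e-09). SPOCK1, a SPARC-related proteoglycan, averaged 17.8 ± 0.995 CPM in the knockout, against 28.8 ± 0.731 CPM in WT (log2 fold change -0.69, adjusted p = 3.07e-07). The 4 that rose were THBS1 (log2 fold change 0.89), THBS3 (0.54), SPP1 (0.47) and MFAP2 (0.12), all secreted matrix or matricellular proteins. The groups overlapped for THBS1 and MFAP2 and lay apart for THBS3 and SPP1. THBS1 ran from 22.5 to 74.5 CPM in knockout libraries, against 23.1 to 28.0 CPM in WT libraries. The collagens as a group and these 4 were named after their values were seen.

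Cell-surface partners of integrins and other matrix receptors moved both ways. Among the 28 that could be tested there were 8 that rose and 12 that fell, where 21.9% of all tested genes were higher and 24.1% lower, and the median was -0.08. CD151, a tetraspanin that binds laminin-binding integrins, averaged 89.6 ± 4.39 CPM in the knockout, against 67.5 ± 1.12 CPM in WT (log2 fold change 0.41, adjusted p = 3.15e-06). BCAM, a receptor for the LAMA5 chain, averaged 133 ± 4.07 CPM in the knockout, against 105 ± 4.49 CPM in WT (log2 fold change 0.35, adjusted p = 1.07e-05). CD63 and CD81, further tetraspanins, averaged 382 ± 29.1 CPM in the knockout, against 281 ± 14.3 CPM in WT (log2 fold change 0.44, adjusted p = 4.05e-05) and 210.2 ± 6.85 CPM in the knockout, against 178 ± 3.01 CPM in WT (log2 fold change 0.24, adjusted p = 3.10e-05). Among those that fell were CD44, a hyaluronan receptor (log2 fold change -0.59), the tetraspanin CD82 (-0.62), the integrin-associated CD47 (-0.40) and DAG1, which encodes the laminin receptor dystroglycan (-0.20). These 4 were chosen after their values were seen. Of 45 tested focal adhesion adaptors and kinases, 10 rose, 9 fell and 26 were not called, shares near those over all tested genes (21.9% higher and 24.1% lower), and the median was 0.00. After the length and GC corrections 17 and 18 of the 45 rose. Over all tested genes 20.3% were higher by joined exon length and 19.4% by transcript length. The nearness to the shares over all genes thus held for the uncorrected values only. The members with the smallest p were ITGB1BP1, which binds the ITGB1 tail, at 17.8 ± 0.704 CPM in the knockout, against 14.5 ± 0.342 CPM in WT (log2 fold change 0.29, adjusted p = 1.12e-04), VASP, an actin elongation factor, at 139.9 ± 10.7 CPM in the knockout, against 115 ± 3.89 CPM in WT (log2 fold change 0.28, adjusted p = 5.59e-04), SHARPIN, an inhibitor of integrin activation, at 38.5 ± 0.594 CPM in the knockout, against 34.0 ± 1.03 CPM in WT (log2 fold change 0.18, adjusted p = 4.90e-04), and PTK2B, a kinase related to FAK, at 6.24 ± 0.229 CPM in the knockout, against 8.46 ± 0.757 CPM in WT (log2 fold change -0.44, adjusted p = 3.14e-04).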

How the data were processed

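RNA from 5 KCNH2-/- and 5 WT libraries of the WAe009-A line was sequenced with 150 paired-end cycles, per the labels' protocols. The authors deposited raw counts per gene and a comparison table with a mean normalized signal, a log2 fold change with its SE, a Wald score, and p-values. DESeq2, R 3.6.3 and hg38 are named in the submitters' processing notes, while no source used here names the aligner, the counter or the strand setting. Rows matched GENCODE 29 (GRCh38) by gene ID for positions and lengths, and promoters came from a RefSeq table on GRCh38.p14. Members and lists were chosen with earlier results of these data known, and 1 member is included in counts but not reported here by itself. From the deposited counts, edgeR 4.0.16 (R 4.3.3, filterByExpr, TMM, quasi-likelihood test, Benjamini-Hochberg adjustment over all tested genes, threshold 0.05) compared the groups. CPM use TMM-scaled library sizes, and CPM per kb divides by all exons of a gene joined. Values per library are given for members of at least 20 CPM in the higher group, called or not, and for called members past 1 on the log2 scale. From each other list up to 4 genes are named by rule, those with the smallest p among tested genes of at least 5 CPM. Alternatives were DESeq2 1.42.0 (size factors, Wald test), limma 3.58.1 (voom), 2 other count filters, a replicate block, length and GC corrections, and leaving out libraries. The fit was tested on simulated counts.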

Additional observations from a re-analysis of the deposited data

Results flagged for a closer look

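Of 80 groups of 5 libraries, 1 per gene and genotype, 2 held a library whose gap to its nearest neighbour was over 0.71 of the range of the group (Dixon's test), where chance flags about 1 in 20. ITGA2, a collagen receptor subunit, measured 7.26 CPM in knockout replicate 5, below the other knockout libraries at 8.51 to 8.74 CPM. ITGA2B, the platelet fibrinogen receptor subunit, measured 25.9 CPM in WT replicate 1, above the other WT libraries at 19.95 to 20.8 CPM. Without that library ITGA2B was still called lower, at -0.31.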

How the results depend on the processing

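Over the 19 alternatives, 25 to 33 of the genes were called lower and 2 or 3 higher. Correction for length and GC moved the most values. The median over the 40 tested genes was -0.23 by joined exon length and -0.21 by transcript length, against -0.31, and ran from -0.32 to -0.27 when single libraries were left out. LAMA5 was 0.11 and 0.17 under the same 2 corrections and ran from -0.045 to 0.011 when libraries were left out. The adaptor list had 17 and 18 called higher, against 10, and 5 lower by joined exon length, against 9. Of all tested genes, 20.3% were called higher by joined exon length and 19.4% by transcript length. The NID1 share differed between the groups by 5.75 points by joined exon length and 6.95 points by transcript length. NID1 was -0.016 and ITGAM -0.27 without knockout replicate 3 and WT replicates 2 and 3 together, and NID1 ran from -0.013 to 0.079 when single libraries were left out. The cause of these changes was not tested. With the replicate number as a block, 27 of the genes were called lower and 2 higher, LAMA2 was no longer called (adjusted p = 0.0552), and no other call among the 40 changed. Deviations of same-numbered libraries correlated at 0.17, -0.16, 0.70, 0.20 and 0.18 over genes, and 1 number of 5, that of replicate 3, matched its own best. The main fit did not pair the libraries, and whether some same-numbered libraries were handled together was not tested. Genes under 1 CPM rest on few counts, and a difference in them may not be detectable at this depth.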

Other observations

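In the authors' deposited table, the log2 fold change of LAMB3 was -0.90, that of FBN2 was -0.72, that of ITGA6 was -0.54 and that of PXN was 0.37. The authors' deposited table gave ITGB1 an adjusted p of 0.07, ITGB2 0.0842 and LAMA2 0.11, all above the threshold of 0.05, while the edgeR fit called the 3 lower. Among the 21 genes of at least 20 CPM, knockout replicate 3 was the highest of its group in 10 and knockout replicate 1 the lowest in 10, while WT replicate 5 was highest in 8 and WT replicate 1 lowest in 8.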
